A study of Mus musculus with 24 samples.

Results

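The genes described here encode proteins of stress granules, P-bodies and the mRNA deadenylation and decapping machinery. All rows whose gene symbol was on a list of 36 such genes were taken, and the 36 were found among the 57010 rows of each of 2 count tables, matched by gene ID. The values are RNA levels of these genes, not protein levels and not measures of granules.

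The data came from GT1-7 cells, an immortalised mouse hypothalamic line that secretes gonadotropin-releasing hormone, in 24 libraries made with CEL-seq2, a method that counts reads near the 3' ends of polyadenylated RNA. In the pull-down (RIP) experiment, cells were transfected with 6 µg of a GFP-Mkrn3 plasmid or of a GFP plasmid and lysed after 24 hours, 5% of each lysate was kept as input, and the rest was incubated with GFP-trap beads (IP). Its 4 groups of 3 libraries were GFP-Mkrn3 IP, GFP-Mkrn3 input, GFP IP and GFP input, so that GFP, alone or fused, was present in every RIP library and the GFP pull-down is the background of beads and tag. In the fractionation experiment, GT1-7 cells that stably expressed GFP-Mkrn3 (Mkrn3ox) and unmodified cells (wt) gave cytoplasmic and total RNA, in 4 groups of 3 libraries: Mkrn3ox cytoplasm, wt cytoplasm, Mkrn3ox total and wt total. Nothing in the labels names the promoter of the construct or says if the stable line is 1 clone. Nor do they tie the 3 libraries of a group to separate cultures, so the p-values below measure only the spread between these libraries, which may be technical.

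Mkrn3 encodes a makorin, a protein with CCCH zinc fingers and a RING finger of the ubiquitin ligase kind. Removal of the poly(A) tail usually opens the decay of an mRNA: the PAN2-PAN3 complex and the CCR4-NOT complex shorten the tail, the DCP1-DCP2 enzyme then removes the cap, and XRN1 degrades the body from the 5' end. Argonaute and TNRC6 proteins direct this machinery to the targets of miRNAs. Many of these factors gather in P-bodies, while G3BP proteins scaffold stress granules, which form from stalled mRNAs when translation initiation is blocked.

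Depth differed strongly between the experiments. A RIP library held 6254703 to 14575652 counts, of which the 36 genes took 39760 to 84544, and all 36 entered the test over 13052 genes. A fractionation library held 374386 to 759271 counts, of which the 36 genes took 639 to 1605, and 26 of the 36 entered the test over 5033 genes. Mkrn3 averaged 3688 ± 74.2 CPM (counts per 1e+06 of the TMM-scaled library) in GFP-Mkrn3 inputs and 6.20 ± 2.33 CPM in GFP inputs (SD, n = 3 each), and 9542 ± 415 CPM in GFP-Mkrn3 IPs against 6.76 ± 1.01 CPM in GFP IPs. In the fractionation experiment Mkrn3 held 0 counts in all Mkrn3ox total and wt total libraries, 1, 0 and 5 counts in Mkrn3ox cytoplasm and 1, 0 and 0 counts in wt cytoplasm. No source names the 3' end of the stable construct, where CEL-seq2 reads would fall, so these counts neither show its expression nor its lack, and "Mkrn3ox" below means the libraries labelled so. Gnrh1, the hormone gene of the line, averaged 319 ± 19.4 CPM in GFP-Mkrn3 inputs and 313 ± 27.5 CPM in GFP inputs. The labels call the cells a neuronal culture. Of 10 neuronal markers, 5 had any count in GFP-Mkrn3 inputs and 4 in GFP inputs. Their summed level was 83.7 to 101.7 CPM in GFP-Mkrn3 inputs and 74.8 to 89.4 CPM in GFP inputs. Among the 10, Stmn2 and Snap25 held 0 to 2 counts in every library.

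In the inputs, no difference in the RNA levels of the 36 genes between GFP-Mkrn3 and GFP cells was detectable. None of the 36 passed the test between GFP-Mkrn3 and GFP inputs by edgeR's quasi-likelihood test with Benjamini-Hochberg adjustment over all genes (adjusted p under 0.05), none passed DESeq2, and 1 had an unadjusted p under 0.05. In the same comparison 0.0153% of all tested genes passed by edgeR, 0.00766% higher and 0.00766% lower. In bulk RNA such as this, fewer cells of a kind and less RNA per cell cannot be told apart. The log2 differences ran between -0.17 for Tial1 and 0.37 for Tia1, 2 related RNA-binding proteins that bind U-rich sequences and enter stress granules. Tia1 stood at 42.4, 41.0 and 38.1 CPM in GFP-Mkrn3 inputs, against 26.7, 33.1 and 33.9 CPM in GFP inputs (log2 difference 0.37 ± 0.13 SE, adjusted p = 0.764). Those groups did not overlap. Fxr1, a relative of the fragile X protein, had the next smallest p, with 165.0, 159.6 and 167.0 CPM in GFP-Mkrn3 inputs against 158.3, 139.2 and 137.1 CPM in GFP inputs (0.18 ± 0.10, adjusted p = 0.899). The groups did not overlap for Fxr1 either. In all, input groups did not overlap for 10 of the 36 genes, and for 13.6% of all tested genes.

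The GFP pull-down, which holds no Mkrn3 fusion, differed from its input for 52.8% of the 36 transcripts. This was near the 50.3% of all tested genes. Relative to its input, 14 of the 36 were higher in the GFP IP and 5 were lower, while 25.1% of all tested genes were higher and 25.2% lower (50.3% in either direction). The median log2 IP-to-input difference was 0.19 over the 36 genes and -0.0045 over all tested genes. Of all calls 49.9% were higher, and 39.3% with library size alone as scaling, which moved the median over all genes to -0.11. The higher transcripts included both subunits of the PAN2-PAN3 deadenylase, the CCR4-NOT scaffold Cnot1, 5 of 9 decapping and P-body genes and 4 of 5 miRNA silencing genes. The lower ones were Cnot7, Pnrc1, Lsm14a, Patl1 and Atxn2l. GFP IP and input groups did not overlap for 24 of the 36 genes, and for 57.4% of all tested genes.

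Among the decapping genes, Edc4, the scaffold that joins the decapping enzyme to its activators, stood at 237.3, 191.9 and 179.3 CPM in GFP IPs, against 93.4, 105.2 and 103.0 CPM in GFP inputs. Every GFP IP library was above every GFP input, a 2.02-fold difference (log2 1.01 ± 0.10 SE, adjusted p = 2.8e-07). Dcp1a, the activating partner of the cap-cleaving enzyme, stood at 94.0, 93.7 and 99.9 CPM in GFP IPs and at 60.3, 61.9 and 62.8 CPM in GFP inputs (0.64 ± 0.091, adjusted p = 1.3e-05), again with no overlap. Xrn1, the exonuclease that degrades decapped mRNA (0.59), Edc3, an enhancer of decapping (0.58), and Ddx6, the helicase at the core of P-bodies (0.25), were also higher, the last with its call lost in 5 of 6 fits that left out 1 library (highest adjusted p 0.133). Dcp2, the cap-cleaving enzyme itself, did not pass (0.22 ± 0.11, adjusted p = 0.094).

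Lsm14a and Patl1, which bridge Ddx6 and the decapping enzyme, went the other way. Lsm14a stood at 95.8, 101.2 and 107.6 CPM in GFP IPs, against 142.8, 143.6 and 154.4 CPM in GFP inputs (-0.53 ± 0.083, adjusted p = 3.3e-05). Patl1 stood at 61.3, 63.9 and 60.9 CPM in GFP IPs, against 73.2, 84.2 and 83.0 CPM in GFP inputs (-0.37 ± 0.11, adjusted p = 0.0068). Neither gene's groups overlapped. Pnrc1, a small coregulator known in human cells to bind the decapping enzyme, stood at 7.71, 12.8 and 9.33 CPM in GFP IPs, against 26.3, 20.4 and 18.9 CPM in GFP inputs. All 3 GFP IP libraries lay below all 3 GFP inputs, a 0.459-fold level (-1.12 ± 0.18, adjusted p = 5.2e-05).

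Among the deadenylases, Cnot1, the scaffold on which the CCR4-NOT complex assembles, stood at 618.1, 619.3 and 625.1 CPM in GFP IPs, against 391.5, 384.3 and 404.0 CPM in GFP inputs (0.66 ± 0.071, adjusted p = 4.7e-07). Pan3, the adaptor that brings the Pan2 nuclease to the tail, stood at 139.5, 151.5 and 149.8 CPM in GFP IPs, against 83.8, 92.3 and 89.6 CPM in GFP inputs (0.73 ± 0.089, adjusted p = 2.1e-06). Cnot7, a catalytic subunit of CCR4-NOT, did the reverse, with 29.0, 35.9 and 40.4 CPM in GFP IPs and 84.2, 62.1 and 82.1 CPM in GFP inputs (-1.12 ± 0.14, adjusted p = 3.7e-06). No library of one group reached the range of the other for these genes. Pan2 was higher (0.67). Cnot2, Cnot3, Cnot4, Cnot6 and Cnot8, the other CCR4-NOT genes, did not pass, with log2 differences between -0.25 and -0.03.

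Of the miRNA silencing genes, the Argonautes Ago1 (0.45) and Ago2 (0.40) and the scaffolds Tnrc6b (0.52) and Tnrc6a (0.27), which join Argonaute to the deadenylases, were higher in the GFP IP. Tnrc6c was at 0.01 and did not pass, and the Tnrc6a call was lost in 4 of 6 fits without 1 library (highest adjusted p 0.112). Of the 9 stress granule genes, G3bp1 (0.44) and Tia1 (0.63) were higher and Atxn2l, a relative of ataxin-2, was lower (-0.33), and the Atxn2l call was lost in 2 of those 6 fits (highest adjusted p 0.068). None of the 4 genes of the fragile X family and Pumilio passed, with log2 differences between -0.18 for Fmr1 and 0.19 for Fxr1. The 5 nuclear-retained RNAs tested, among them Xist (2.87) and Kcnq1ot1 (3.36), were all higher in the GFP IP. Their part in the values of the 36 genes was not tested.

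**Figure D1:**
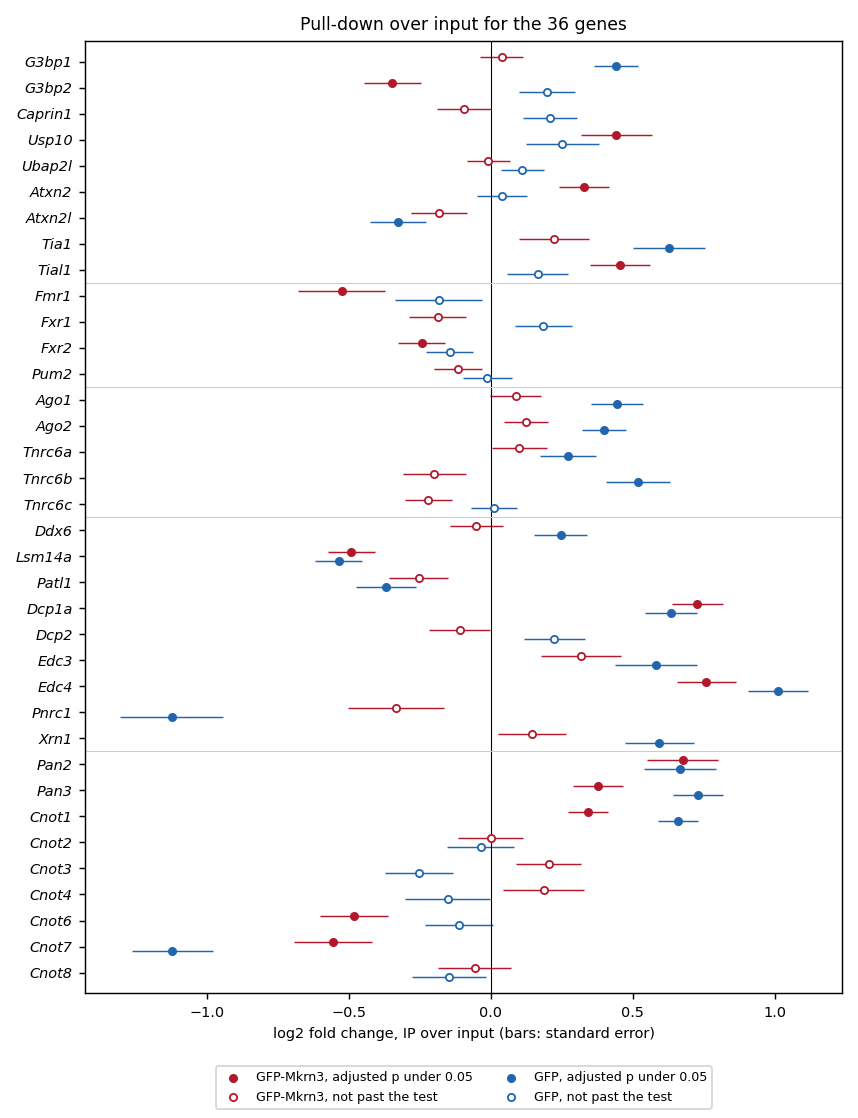
Each point is a gene's log2 fold change between IP and input (x axis) from the fit over all genes, with its standard error; red stands for GFP-Mkrn3 and blue for GFP (3 libraries per group), filled where the adjusted p was under 0.05. Grey lines separate stress granule genes, the fragile X family with Pumilio, miRNA silencing genes, decapping and P-body genes, and deadenylases; Edc4 lies farthest right at 1.01 in the GFP pull-down, and Cnot7 and Pnrc1 lie farthest left at -1.12.

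In the GFP-Mkrn3 pull-down, 8 of the 36 transcripts were higher than in their own input and 6 were lower. Over all tested genes 13.9% were higher and 12.8% lower (26.7% in either direction), and the median log2 difference was -0.0042 over the 36 genes and 0.03 over all tested genes. Of all calls 52.0% were higher, and 67.3% with library size alone as scaling. GFP-Mkrn3 IP and input groups did not overlap for 18 of the 36 genes, and for 40.7% of all tested genes. The higher genes were the decapping factors Dcp1a and Edc4, the deadenylase genes Pan2, Pan3 and Cnot1, and the stress granule genes Tial1, Usp10 and Atxn2. The lower genes were Cnot6, Cnot7, Lsm14a, Fmr1, Fxr2 and G3bp2. None of the 5 miRNA silencing genes passed, with log2 differences between -0.22 for Tnrc6c and 0.12 for Ago2. Of the 5 nuclear-retained RNAs tested, 4 were higher in the GFP-Mkrn3 IP than in its input, among them Kcnq1ot1 (2.86) and Xist (2.43).

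Dcp1a stood at 102.2, 111.4 and 97.2 CPM in GFP-Mkrn3 IPs, against 61.3, 67.1 and 59.5 CPM in GFP-Mkrn3 inputs (0.73 ± 0.090 SE, adjusted p = 1.8e-05). Edc4 stood at 172.6, 182.5 and 153.9 CPM in GFP-Mkrn3 IPs, against 106.7, 95.7 and 98.6 CPM in GFP-Mkrn3 inputs (0.76 ± 0.10, adjusted p = 5.6e-05). The IP libraries lay above the inputs without overlap for both decapping genes. Lsm14a was at 110.7, 105.8 and 106.5 CPM in GFP-Mkrn3 IPs, against 142.6, 158.7 and 152.4 CPM in GFP-Mkrn3 inputs (-0.49 ± 0.082, adjusted p = 0.00033), with all IPs below all inputs.

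Of the deadenylases, Pan2, the nuclease of the PAN2-PAN3 complex, stood at 47.3, 53.0 and 38.0 CPM in GFP-Mkrn3 IPs, against 28.6, 28.3 and 29.9 CPM in GFP-Mkrn3 inputs (0.68 ± 0.13, adjusted p = 7.6e-04). Cnot1 stood at 450.5, 477.3 and 487.0 CPM in GFP-Mkrn3 IPs, against 375.6, 362.7 and 377.9 CPM in GFP-Mkrn3 inputs (0.34 ± 0.071, adjusted p = 0.0018). Both genes were higher in every IP library than in any input. The catalytic subunit Cnot6 stood at 90.6, 77.4 and 116.5 CPM in GFP-Mkrn3 IPs, against 131.7, 122.3 and 141.2 CPM in GFP-Mkrn3 inputs (-0.48 ± 0.12, adjusted p = 0.0060). Cnot7 stood at 49.7, 42.9 and 57.3 CPM in GFP-Mkrn3 IPs, against 67.4, 77.1 and 74.8 CPM in GFP-Mkrn3 inputs (-0.56 ± 0.14, adjusted p = 0.0060). These 2 nuclease genes lay below their inputs without overlap. Pan3 was higher by 0.38.

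Of the stress granule genes, G3bp2, a scaffold paralogous to G3bp1, stood at 172.6, 150.0 and 213.4 CPM in GFP-Mkrn3 IPs, against 228.7, 226.8 and 224.7 CPM in GFP-Mkrn3 inputs (-0.35 ± 0.099, adjusted p = 0.014), with no overlap and a wide spread among the IPs. Tial1 (0.46), Usp10, a deubiquitinase that binds G3BP proteins (0.44), and Atxn2, ataxin-2 (0.33), were higher. Fmr1, the fragile X gene (-0.52), and its relative Fxr2 (-0.24) were lower. The calls of Fmr1, G3bp2, Usp10 and Fxr2 were each lost in 1 to 5 of 6 fits that left out 1 library, with highest adjusted p of 0.054, 0.064, 0.077 and 0.150.

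Among the 4 RIP groups, the GFP-Mkrn3 IP had the widest spread between its libraries for the 36 genes. The median coefficient of variation over these genes was 9.31% in GFP-Mkrn3 IPs, 4.54% in GFP-Mkrn3 inputs, 6.32% in GFP IPs and 5.24% in GFP inputs, and Fmr1 had the highest value, 30.0% in GFP-Mkrn3 IPs. Library 3 was the highest of the 3 GFP-Mkrn3 IPs for 23 of the 36 genes, and library 2 was the lowest for 20. The summed level of the 36 genes was 5734.9, 5414.6 and 6307.4 CPM in GFP-Mkrn3 IPs and 5943.5, 5918.7 and 5919.5 CPM in GFP-Mkrn3 inputs, while it was 6540.2, 6778.6 and 6744.8 CPM in GFP IPs and 5919.0, 5673.7 and 5903.8 CPM in GFP inputs. Without GFP-Mkrn3 IP library 3, 12 of the 36 genes were called lower in the GFP-Mkrn3 IP than in its input, in place of 6. The share of all tested genes called lower in that fit is not given here. The count therefore does not show whether the rise was particular to the 36 genes.

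**Figure D2:**
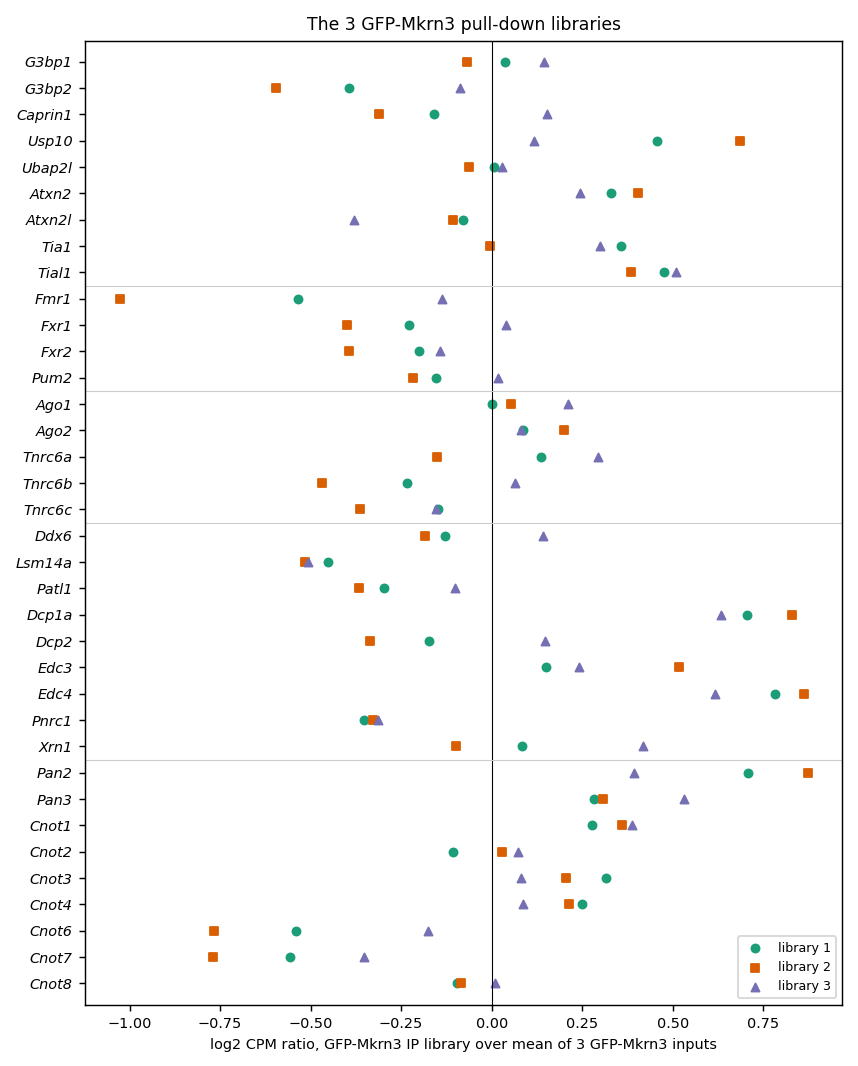
Each point is the log2 ratio (x axis) of a gene's CPM in 1 GFP-Mkrn3 IP library to its mean over the 3 GFP-Mkrn3 inputs; colours and shapes mark libraries 1, 2 and 3. Library 3 lies rightmost for 23 of the 36 genes and library 2 leftmost for 20, and the range between libraries is widest for Fmr1 at 0.89.

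The 2 pull-downs share no library, so their calls can be set side by side. Of the 8 genes higher in the GFP-Mkrn3 IP than in its input, 5 were also higher in the GFP IP than in its input, namely Dcp1a, Edc4, Pan2, Pan3 and Cnot1, which is 62.5% of the GFP-Mkrn3 list and 35.7% of the 14 in the GFP list. Of the 6 lower genes, Lsm14a and Cnot7 were lower in both, 33.3% of the GFP-Mkrn3 list and 40.0% of the 5 in the GFP list. None of the 36 genes was called in opposite directions. Opposite calls were few over all tested genes too. They were 72 of the 1812 higher in the GFP-Mkrn3 IP and 52 of the 1675 lower in it. The log2 difference had the same sign in both pull-downs for 26 of the 36 genes, and for 66.7% of all tested genes. Over all tested genes, 1196 were higher in both, 66.0% of the GFP-Mkrn3 list and 36.5% of the GFP list, and 1116 were lower in both, 66.6% and 33.9% of those lists.

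Between the pull-downs, 5 of the 36 genes were higher in GFP-Mkrn3 IPs than in GFP IPs and 12 were lower, where 20.4% of all tested genes were higher and 17.2% lower (37.6% in either direction). The median log2 difference was -0.13 over the 36 genes and 0.03 over all tested genes. The lower genes included 4 of the 5 miRNA silencing genes, the stress granule genes G3bp1, G3bp2 and Caprin1, and the decay genes Dcp2, Xrn1, Ddx6, Cnot1 and Pan3. The higher genes were Pnrc1, Atxn2 and the CCR4-NOT genes Cnot3, Cnot4 and Cnot7. This split depended on the scaling. With library size alone in place of TMM factors, 10 of the 36 were higher and 2 were lower, beside 4104 and 1154 of all 13052 tested genes. The share of higher genes among all calls was 78.1% in place of 54.2%, and the median over all tested genes moved to 0.21. The median over the 36 genes minus that over all tested genes was -0.16 with either scaling. The nuclear-retained RNAs lay on the lower side too: of 5 tested, 0 were higher in GFP-Mkrn3 IPs than in GFP IPs and 3 were lower, namely Malat1 (-0.68), Neat1 (-0.43) and Kcnq1ot1 (-0.43), and the median over the 5 was -0.43. Their part in the values of the 36 genes was not tested.

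Among the genes lower in GFP-Mkrn3 IPs, Cnot1 stood at 450.5, 477.3 and 487.0 CPM there, against 618.1, 619.3 and 625.1 CPM in GFP IPs (-0.40 ± 0.071 SE, adjusted p = 2.4e-04). Tnrc6b stood at 215.8, 183.7 and 265.8 CPM in GFP-Mkrn3 IPs, against 294.3, 339.5 and 329.1 CPM in GFP IPs (-0.54 ± 0.11, adjusted p = 9.2e-04). G3bp1 stood at 270.5, 251.7 and 291.3 CPM in GFP-Mkrn3 IPs, against 352.5, 350.5 and 336.2 CPM in GFP IPs (-0.35 ± 0.076, adjusted p = 0.0012). None of these genes overlapped between the pull-downs. Tnrc6c stood at 162.5, 139.7 and 161.8 CPM in GFP-Mkrn3 IPs, against 207.8, 188.7 and 197.5 CPM in GFP IPs (-0.36 ± 0.082, adjusted p = 0.0020), likewise without overlap. The remaining lower genes were G3bp2 (-0.40), Caprin1, an RNA-binding partner of G3BP proteins (-0.39), Dcp2 (-0.34), Xrn1 (-0.33), Ago1 (-0.27), Pan3 (-0.27), Ddx6 (-0.27) and Ago2 (-0.22).

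Among the genes higher in GFP-Mkrn3 IPs, Pnrc1 stood at 16.6, 16.9 and 17.1 CPM there, against 7.71, 12.8 and 9.33 CPM in GFP IPs (0.76 ± 0.18, adjusted p = 0.0028). Atxn2 stood at 172.4, 181.6 and 162.4 CPM in GFP-Mkrn3 IPs, against 130.3, 143.6 and 133.8 CPM in GFP IPs (0.34 ± 0.087, adjusted p = 0.0045). Cnot3, which holds the regulatory end of CCR4-NOT together with Cnot2, stood at 61.9, 57.4 and 52.7 CPM in GFP-Mkrn3 IPs, against 40.2, 43.8 and 42.6 CPM in GFP IPs (0.44 ± 0.12, adjusted p = 0.0057). Every GFP-Mkrn3 IP library exceeded every GFP IP library for Pnrc1, Atxn2 and Cnot3. Cnot7 stood at 49.7, 42.9 and 57.3 CPM in GFP-Mkrn3 IPs, against 29.0, 35.9 and 40.4 CPM in GFP IPs (0.51 ± 0.14, adjusted p = 0.0091), without overlap. Cnot4, the ubiquitin ligase of the complex, was higher by 0.48. Groups did not overlap for 17 of the 36 genes, and for 46.3% of all tested genes.

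Of the 17 calls, 5 held under every alternative tried, those of Pnrc1, Atxn2, Cnot3, Cnot1 and Tnrc6b. Fits without 1 library gave 3 to 5 genes higher and 6 to 15 lower. There were 6 lower without GFP-Mkrn3 IP library 1, 7 lower without GFP IP library 2, and 3 higher without GFP IP library 1. The shares of all tested genes called in these fits are not given here, so these counts do not show whether other genes moved alike. The Ago2, Pan3, Xrn1 and Ddx6 calls were each lost in 4 of 6 fits without 1 library, with highest adjusted p between 0.110 and 0.178.

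**Figure D3:**
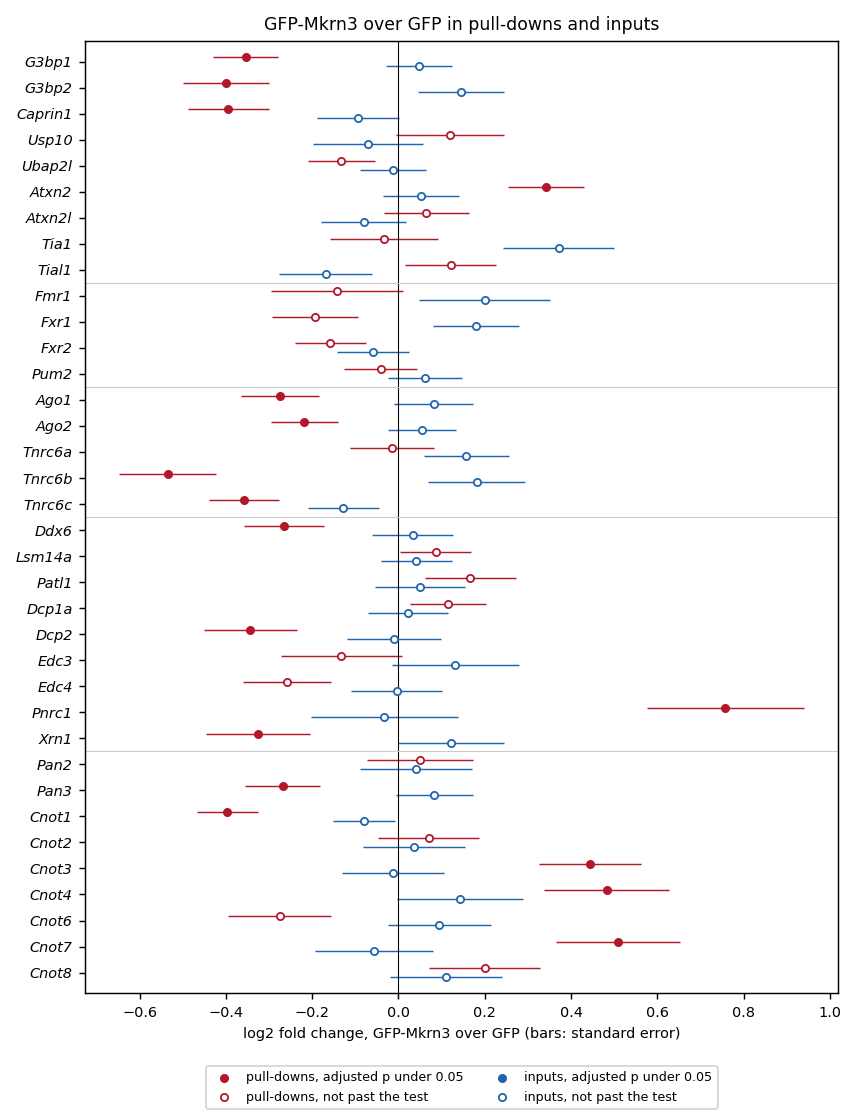
Each point is a gene's log2 fold change of GFP-Mkrn3 over GFP (x axis) with its standard error, in red for the pull-downs and in blue for the inputs (3 libraries per group), filled where the adjusted p was under 0.05. In the inputs no gene passed, with values between -0.17 and 0.37, while in the pull-downs 5 genes lie to the right and 12 to the left.

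The IP-to-input ratio sets each pull-down against its own input and asks whether the 2 ratios differ, in 1 interaction test. It shares its libraries with the comparisons above. Of the 36 genes, 2 had a higher ratio with GFP-Mkrn3 than with GFP and 6 a lower one, where 13.2% of all tested genes were higher and 11.1% lower (24.3% in either direction). The median log2 difference of ratios was -0.20 over the 36 genes and 0.04 over all tested genes.

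Tnrc6b had the largest difference among the lower genes. It stood at 215.8, 183.7 and 265.8 CPM in GFP-Mkrn3 IPs and 281.4, 235.7 and 244.8 CPM in GFP-Mkrn3 inputs, while it stood at 294.3, 339.5 and 329.1 CPM in GFP IPs and 224.4, 212.1 and 235.4 CPM in GFP inputs. The IPs and inputs of GFP-Mkrn3 overlapped, whereas every GFP IP library was above every GFP input. The difference of ratios was -0.72 ± 0.16 SE (adjusted p = 0.0031), and of the 8 genes with a different ratio it was the one whose call held under all alternatives. The Tnrc6b gene lies on chromosome 15 at 80711313 to 80941086, plus strand (GRCm38.p6, RefSeq).

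The stress granule scaffolds followed. G3bp2 (chromosome 5, 92052145 to 92137725, minus strand) stood at 172.6, 150.0 and 213.4 CPM in GFP-Mkrn3 IPs and 228.7, 226.8 and 224.7 CPM in GFP-Mkrn3 inputs, while it stood at 234.3, 233.7 and 237.8 CPM in GFP IPs and 212.8, 197.0 and 205.2 CPM in GFP inputs (-0.55 ± 0.14, adjusted p = 0.0089). Its IPs lay below their inputs with GFP-Mkrn3 and above them with GFP, without overlap in either, but the shift with GFP did not pass (0.20, adjusted p = 0.105) and the call with GFP-Mkrn3 was lost in 2 of 6 fits without 1 library. G3bp1 (chromosome 11, 55469657 to 55500888, plus strand) stood at 270.5, 251.7 and 291.3 CPM in GFP-Mkrn3 IPs and 256.3, 271.7 and 263.1 CPM in GFP-Mkrn3 inputs, while it stood at 352.5, 350.5 and 336.2 CPM in GFP IPs and 257.6, 258.7 and 249.1 CPM in GFP inputs (-0.40 ± 0.11, adjusted p = 0.011). Its GFP-Mkrn3 IPs overlapped their inputs, and its GFP IPs lay above theirs. Both scaffold calls held in all 12 fits that left out 1 library and were lost with library size alone as scaling (adjusted p 0.054 for G3bp2 and 0.132 for G3bp1).

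Cnot1 (chromosome 8, 95718931 to 95808113) was above its input with both plasmids, by 0.34 with GFP-Mkrn3 and 0.66 with GFP, and the ratios differed by -0.32 ± 0.10 (adjusted p = 0.027). Pan3 likewise was above its input with both, by 0.38 and 0.73, and differed by -0.35 ± 0.13 (adjusted p = 0.047). Ago1 stood at 98.9, 102.5 and 114.5 CPM in GFP-Mkrn3 IPs and 99.1, 91.6 and 105.8 CPM in GFP-Mkrn3 inputs, while it stood at 131.3, 127.3 and 123.0 CPM in GFP IPs and 98.3, 94.5 and 87.8 CPM in GFP inputs (-0.36 ± 0.13, adjusted p = 0.049). Only the GFP IPs of Ago1 were set apart from their inputs. Pan3 stood at 114.2, 116.2 and 135.7 CPM in GFP-Mkrn3 IPs, against 93.1, 92.3 and 96.2 CPM in GFP-Mkrn3 inputs, with no overlap.

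On the other side, Pnrc1 stood at 16.6, 16.9 and 17.1 CPM in GFP-Mkrn3 IPs and 21.8, 19.9 and 22.0 CPM in GFP-Mkrn3 inputs, and its deficit in the GFP IP was larger, so that the ratios differed by 0.79 ± 0.25 (adjusted p = 0.027). Cnot7 was below its input with both plasmids, by -0.56 with GFP-Mkrn3 and -1.12 with GFP, a difference of 0.56 ± 0.20 (adjusted p = 0.044). Vps37a, which overlaps Cnot7 and was more abundant, had no detectable difference of ratios (0.08, adjusted p = 0.755). Whether the Cnot7 row holds reads of Vps37a was not tested. Single libraries carried much of this count. Fits without 1 library gave 0 to 3 genes higher and 3 to 13 lower: 13 lower without GFP-Mkrn3 IP library 3, and 0 higher without GFP IP library 1, GFP-Mkrn3 input library 2 or GFP-Mkrn3 IP library 1. The lower count was 3 without GFP-Mkrn3 IP library 1, GFP-Mkrn3 input library 1 or 3, GFP IP library 2 or 3, or GFP input library 2. The shares of all tested genes called in these fits are not given here, so these counts do not show whether other genes moved alike. The calls of Pan3, Ago1, Cnot7, Cnot1 and Pnrc1 were lost in 10, 9, 9, 6 and 5 of the 12 fits, with highest adjusted p of 0.133, 0.133, 0.131, 0.088 and 0.081. Input and IP were taken from lysates, and the labels do not say whether a number marks a shared lysate. With the number as a block within each plasmid, 4 of the 8 calls were lost, those of Ago1, Cnot1, Pan3 and Cnot7 (adjusted p 0.071, 0.071, 0.069 and 0.064), and 1 gene was higher and 3 were lower. With library size alone as scaling, 5 genes were higher and 1 lower, beside 2845 and 603 of all 13052 tested genes. The share of higher genes among all calls was 82.5% in place of 54.2%, and the median over all genes moved to 0.23. The median over the 36 genes minus that over all tested genes was -0.24 with either scaling.

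**Figure D4:**
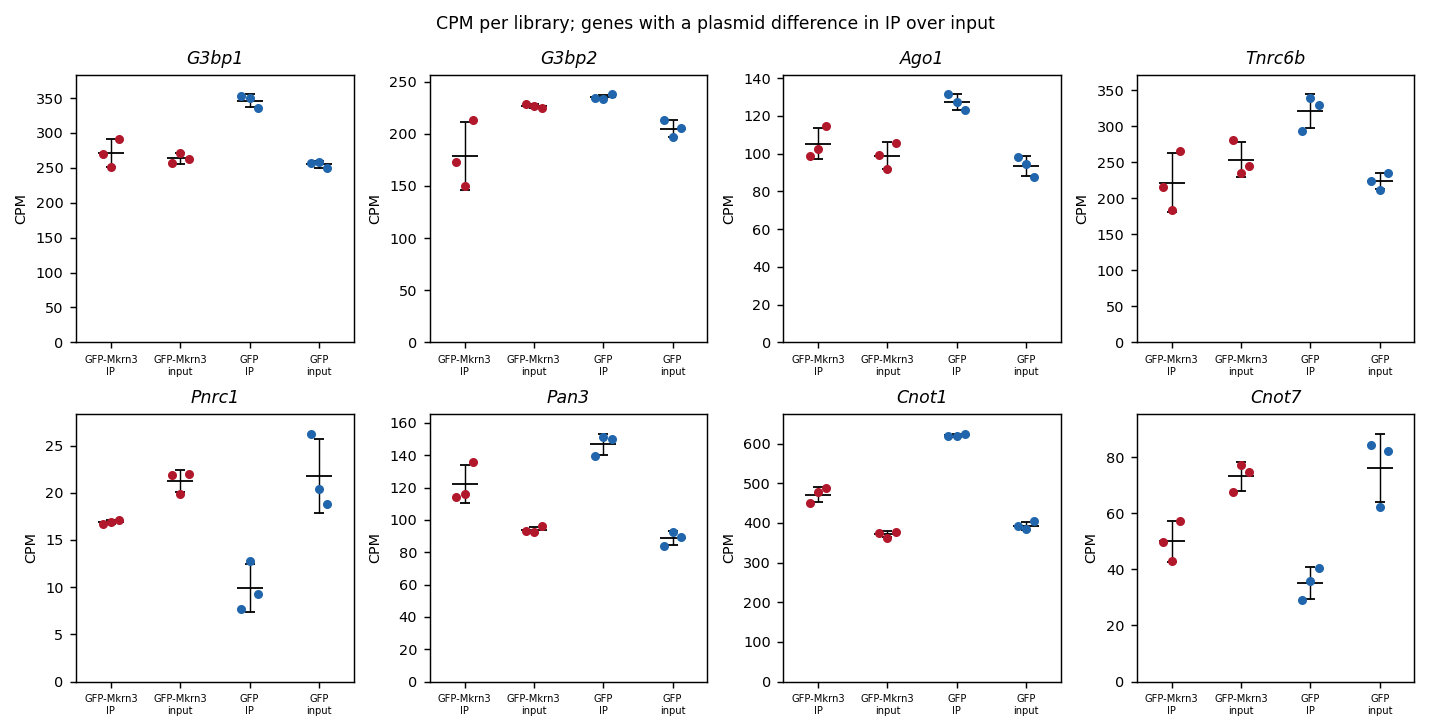
Points are CPM (y axis, from 0) in each of the 3 libraries of GFP-Mkrn3 IP, GFP-Mkrn3 input, GFP IP and GFP input, with the group mean and SD in black, for the 8 genes whose IP-to-input ratio differed between plasmids. For G3bp1, G3bp2, Ago1, Tnrc6b, Pan3 and Cnot1 the GFP IP is the highest group, and for Pnrc1 and Cnot7 it is the lowest.

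Other genes of the same pathways were counted from lists of neighbours in function. Of 12 further decapping genes, 5 had a higher IP-to-input ratio with GFP-Mkrn3 than with GFP and 0 a lower one, beside 13.2% and 11.1% of all tested genes. They included Lsm2 (1.03), Lsm1 (1.02) and Lsm3 (0.90), subunits of the LSM ring that binds shortened tails and activates decapping, and Dcps (0.88), which hydrolyses the freed cap. In the GFP pull-down 9 of the 12 were below input and 1 above, beside 25.2% and 25.1% of all tested genes, led by Lsm2 (-1.62), Lsm5 (-1.43), Lsm1 (-1.40) and Lsm4 (-1.24). Of 14 further deadenylation genes, 3 had a higher ratio and 0 a lower one: Tob1 (0.72) and Btg1 (0.50), which recruit CCR4-NOT, and Noct (0.44).

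Of 25 further stress granule genes, 2 had a higher ratio and 11 a lower one, where the shares over all tested genes were 13.2% and 11.1%, as for the lists that follow. Tardbp (-0.85) and Hnrnpa1 (-0.79), nuclear RNA-binding proteins that also enter stress granules, and the helicase Dhx36 (-0.79) were among the lower ones. In the GFP pull-down 16 of these 25 were above input and 4 below, beside 25.1% and 25.2% of all tested genes, with Dhx36 at 0.79 and Ybx1 at -0.83. Of 11 further miRNA silencing genes, 0 had a higher ratio and 1 a lower one, Gigyf2 (-0.94), a translational repressor. Of 18 tested recruiters of mRNA decay, 0 had a higher ratio and 4 a lower one, Celf1 (-0.56), Rc3h1 (-0.46), Khsrp (-0.44) and Upf1 (-0.38). Of 15 tested exosome and 3' decay genes, 2 had a higher ratio, Wdr61 (0.71) and Exosc8 (0.45), and 0 a lower one. The further stress granule genes with a higher ratio were Ppp1r15a (0.71), a phosphatase subunit that reverses the block of initiation, and Pabpc1 (0.41), which binds the poly(A) tail.

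The fractionation table needs a caution before its values are read. CEL-seq2 reads carry strand, and no source used here gives the strand setting of its counts. Among the neighbours of the 36 genes, chosen after their values were seen, Gm19710, which overlaps Ubap2l on the opposite strand, held 11190 counts over the 12 fractionation libraries and 21 over the 12 RIP libraries. Sox15, which lies near Fxr2, held 1362 counts in the fractionation libraries and 3 in the RIP libraries. The Edc3 row, beside Clk3 on the opposite strand, was 17.9-fold higher in wt total libraries than in GFP inputs, when the median ratio over the 36 genes was 0.247 and 2.13% of 10291 genes had a higher one. Each fractionation value below is therefore the value of the named row, which may hold reads of another transcript. In all, 18 of the 36 genes overlap another annotated gene.

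Of the 36 genes, 10 were too low for the fractionation test, with totals over the 12 libraries of 5 counts for Pan2, 23 for Edc4, 37 for Atxn2l, 43 for Dcp2, 43 for Patl1, 44 for Fxr2, 57 for Dcp1a, 60 for Usp10, 65 for Pnrc1 and 70 for Cnot3. For these no difference was detectable at this depth.

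In total RNA, none of the 26 tested genes passed between Mkrn3ox and wt by edgeR or by DESeq2. By edgeR, 2 had an unadjusted p under 0.05, and 7.39% of all tested genes passed, 3.56% higher and 3.83% lower. Of all calls 48.1% were higher, and 60.7% with library size alone as scaling. Pum2, which binds Pumilio elements and recruits deadenylases, differed by 0.62 ± 0.28 SE (adjusted p = 0.230), and Tnrc6a by 0.97 ± 0.45 (adjusted p = 0.249). Tnrc6a stood at 137.1, 46.0 and 74.8 CPM in Mkrn3ox total, against 25.2, 52.7 and 52.3 CPM in wt total, with overlap. Mkrn3ox total and wt total did not overlap for 4 of 26 genes, and for 25.4% of all tested genes. Of the further pathway genes, Ddx3x (-0.95), Upf1 (-0.72) and Samd4 (-1.40) were lower in Mkrn3ox total. Ddx3x was 1 of 19 tested stress granule genes, and Upf1 and Samd4 were 2 of 14 tested recruiters of mRNA decay. The other pathway lists held no call.

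In cytoplasmic RNA, Ago2 and Caprin1 were higher in Mkrn3ox than in wt, 2 of 26 tested genes, and none was lower; over all tested genes 4.31% were higher and 6.14% lower (10.5% in either direction). Of all calls 41.3% were higher, and 72.8% with library size alone as scaling, which moved the median over all genes from 0.03 to 0.38. That scaling left 4 of the 26 genes higher, beside 507 of all 5033 tested genes. Ago2 (chromosome 15, 73101625 to 73184947), the Argonaute that can cleave its targets, stood at 127.2, 175.6 and 150.5 CPM in Mkrn3ox cytoplasm, against 44.0, 31.9 and 54.7 CPM in wt cytoplasm. The groups did not overlap (1.80 ± 0.34, adjusted p = 0.0013), and the call held in all 6 fits without 1 library (highest adjusted p 0.0151). The counts behind it were 51, 69 and 72 in Mkrn3ox cytoplasm and 17, 15 and 20 in wt cytoplasm.

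In total RNA the order for Ago2 was the other way round, with 60.3, 70.0 and 81.5 CPM in Mkrn3ox total and 93.7, 100.5 and 85.8 CPM in wt total, again without overlap but not past the test (-0.40 ± 0.32, adjusted p = 0.579). Ago2 was thus above total RNA in the Mkrn3ox cytoplasm (1.09 ± 0.32, adjusted p = 0.057) and below it in the wt cytoplasm (-1.11 ± 0.34, adjusted p = 0.078), neither past the test. The difference of these cytoplasm-to-total ratios was 2.20 ± 0.47 (adjusted p = 0.051), just short of the threshold, with adjusted p between 0.0016 and 0.158 over the alternatives. None of the 26 genes passed for this ratio by edgeR, and 1 had an unadjusted p under 0.05. Over all tested genes 0.219% passed by edgeR, 0.0795% higher and 0.139% lower. By DESeq2, 1 of the 26 passed, Ago2, and the share of all tested genes that passed DESeq2 is not given here. Caprin1 had the next smallest p for the ratio (0.96 ± 0.49, adjusted p = 0.538).

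Caprin1 stood at 119.7, 178.1 and 181.9 CPM in Mkrn3ox cytoplasm, against 44.0, 70.1 and 87.5 CPM in wt cytoplasm, without overlap (1.25 ± 0.35, adjusted p = 0.026). The call was lost in 4 of 6 fits, those without Mkrn3ox cytoplasm library 2 or 3 or wt cytoplasm library 1 or 2 (highest adjusted p 0.126). G3bp2, Ago1 and Pan3 were also higher in every Mkrn3ox cytoplasm library than in any wt one and did not pass, and Pan3 differed by 1.01 ± 0.36 (adjusted p = 0.081). Fmr1 was below all wt libraries in every Mkrn3ox one and did not pass. Of the further pathway genes, Cnot6l, a catalytic deadenylase (1.41), and Ybx1 (1.32) were higher in Mkrn3ox cytoplasm. They were 1 of 7 tested deadenylation genes and 1 of 19 tested stress granule genes, beside 4.31% of all tested genes. The other pathway lists held no call. Groups did not overlap for 6 of 26 genes, and for 27.7% of all tested genes.

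Several other values differed between the Mkrn3ox and wt libraries. The mitochondrial row mt-Nd6 took 9.80% to 12.1% of counts in Mkrn3ox cytoplasm and 18.6% to 23.2% in wt cytoplasm, and Grtp1, another abundant row, took 3.40% to 3.69% in Mkrn3ox cytoplasm and 8.35% to 8.89% in wt cytoplasm. In a fit without these rows the adjusted p was 0.0014 for Ago2 and 0.027 for Caprin1. The part of the following values was not tested. In total RNA, Xist held 0 counts in each Mkrn3ox library, against 139, 159 and 159 in wt. Between the cytoplasms, 0 of the 4 nuclear-retained RNAs tested passed. The summed level of 10 neuronal markers was 248.7 to 277.4 CPM in Mkrn3ox cytoplasm and 40.4 to 93.0 CPM in wt cytoplasm, with 4 of the 10 detected in each. Most of the first sum was Uchl1, at 173 ± 32.2 CPM in Mkrn3ox cytoplasm and 3.60 ± 4.19 CPM in wt cytoplasm (SD, n = 3 each; edgeR adjusted p = 1.1e-05), while Map2, the other neuronal marker tested, did not pass (0.42). The summed level of 8 fibroblast, endothelial and immune markers was 661.0 to 712.7 CPM in Mkrn3ox cytoplasm and 804.7 to 862.7 CPM in wt cytoplasm, with 4 of the 8 detected in each. Of its 3 tested members Col1a2 was lower (-0.71), and Col1a1 (1.75) and Csf1r (0.10) did not pass. In total RNA the order of this sum was the other way round. It was 807.8 to 902.4 CPM in Mkrn3ox total and 571.5 to 798.1 CPM in wt total, and Col1a1 was called higher in Mkrn3ox total.

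Against total RNA, Ubap2l, a protein needed for stress granule assembly, was the 1 of 26 tested genes lower in the wt cytoplasm, where 3.16% of all tested genes were lower and 0.616% higher (3.78% in either direction). Its counts were 5, 5 and 4 in wt cytoplasm and 26, 35 and 54 in wt total, and its levels were 12.9, 10.6 and 10.9 CPM in wt cytoplasm against 46.8, 57.7 and 72.4 CPM in wt total (-2.34 ± 0.62 SE, adjusted p = 0.034). The groups were well apart, but the call was lost in 5 of 6 fits without 1 library, all but that without wt total library 1 (highest adjusted p 0.123), and with the replicate number as a block within a line (adjusted p 0.086). Gm19710 did not differ detectably in the same comparison (0.22 ± 0.16, adjusted p = 0.567). Its part in the Ubap2l row was not tested. The 4 nuclear-retained RNAs tested were all lower in the wt cytoplasm, with log2 differences between -5.59 and -4.17. Cytoplasm and total groups of wt cells did not overlap for 7 of 26 genes, and for 19.6% of all tested genes.

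In Mkrn3ox cells none of the 26 genes passed between cytoplasm and total RNA by edgeR, and 3 had an unadjusted p under 0.05. Over all tested genes 4.53% passed by edgeR, 0.775% higher and 3.76% lower. By DESeq2, 1 of the 26 was higher, Ago2, and the share of all tested genes called by DESeq2 is not given here. Ubap2l stood at 4.99, 20.4 and 18.8 CPM in Mkrn3ox cytoplasm, against 69.5, 18.4 and 43.2 CPM in Mkrn3ox total, with overlap (-1.55 ± 0.60, adjusted p = 0.167). Of the 4 nuclear-retained RNAs tested, 2 were lower in the Mkrn3ox cytoplasm, Kcnq1ot1 and Malat1, and 0 were higher. Their log2 differences ran between -5.05 and 4.355, and 3 of the 4 were negative. The 4.355 was that of Xist, which held 0 counts in each Mkrn3ox total library. With no count in that total RNA, its direction cannot be read. The median over the 26 genes was -0.28 in Mkrn3ox cells and -0.32 in wt cells, where the medians over all tested genes were -0.0013 and 0.01.

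**Figure D5:**
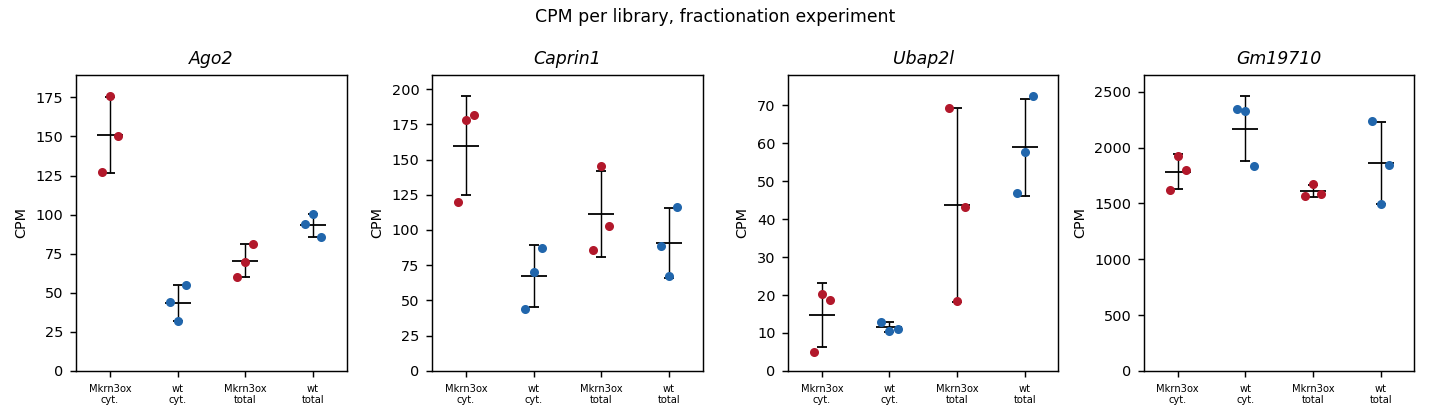
Points are CPM (y axis, from 0) in each of the 3 libraries of Mkrn3ox cytoplasm (cyt.), wt cytoplasm, Mkrn3ox total and wt total, with the group mean and SD in black, for Ago2, Caprin1, Ubap2l and Gm19710. Ago2 is highest in Mkrn3ox cytoplasm at 127.2 to 175.6 CPM and lowest in wt cytoplasm at 31.9 to 54.7 CPM, and the Gm19710 row is far above the Ubap2l row it overlaps.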

How the data were processed

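Per the labels, RNA of GT1-7 cells was made into CEL-seq2 libraries and sequenced on an Illumina HiSeq instrument. Per the submitters' processing notes, cutadapt, STAR and HTSeq were used with mm10. No source used here gives their versions, the annotation, the strand setting or whether molecular identifiers were counted. The authors deposited 2 tables of raw counts per gene, not normalized. Separate fits per table used edgeR 4.0.16 (R 4.3.3), with TMM scaling, the default filter on low counts by group, group means, quasi-likelihood F test, two-sided, Benjamini-Hochberg adjustment over all tested genes, calls at adjusted p under 0.05. CPM used TMM-scaled library sizes; ± is SD for levels and SE for log2 differences. DESeq2 1.42.0, other scalings and filters, replicate blocks and leaving out libraries were alternatives. The fit was also run on simulated counts, with the same spread setting for all genes and for the first comparison of each experiment only. The outcome is not given here, and the run did not cover the tests of ratios. Positions came from RefSeq (GRCm38.p6, the assembly called mm10), where all 36 genes matched.

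The 36 genes and the pathway lists were chosen with earlier results of these data known. Genes past the test were named in each comparison, the 4 with the smallest adjusted p per direction with their values where more than 12 passed, and the 2 with the smallest p where none passed. Of each pathway list, up to 4 called genes with the largest differences and a mean of at least 20 counts were named; Ppp1r15a, Pabpc1 and the overlapping or neighbouring genes were added after their values were seen. A gene of these lists that the rule would name is not reported here. No sequence is printed, since no transcript or protein sequence was used here.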

Additional observations from a re-analysis of the deposited data

Results flagged for a closer look

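Of the 36 genes, 8 differed between plasmids in their IP-to-input ratio by an interaction test over all genes (edgeR quasi-likelihood, adjusted p under 0.05, n = 3 libraries per group). The log2 differences, GFP-Mkrn3 minus GFP, were -0.72 for Tnrc6b, -0.55 for G3bp2, -0.40 for G3bp1, -0.36 for Ago1, -0.35 for Pan3 and -0.32 for Cnot1, and 0.79 for Pnrc1 and 0.56 for Cnot7. Of all tested genes 24.3% passed the same test. With the replicate number as a block within each plasmid, Ago1, Pan3, Cnot1 and Cnot7 no longer passed.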

How the results depend on the processing

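No call turned its direction under any alternative run, and of 61 calls over all comparisons 33 held under every alternative and 39 in every fit without 1 library. Counts of the genes past the test changed as follows, with the cause not tested. With library size alone as scaling, 4 genes were higher in Mkrn3ox than wt cytoplasm (2 with TMM), 2 lower in wt cytoplasm than total (1), and 1 higher for the cytoplasm-to-total ratio (0). The counts over all 5033 tested genes were 507 higher (217), 230 lower (159) and 8 higher (4), in that order. Between the pull-downs 10 were higher and 2 lower (5 and 12), beside 4104 and 1154 of all 13052 tested genes (2661 and 2246). For the IP-to-input ratio 5 were higher and 1 lower (2 and 6), beside 2845 and 603 (1724 and 1454). With DESeq2 size factors, 1 gene was higher for the cytoplasm-to-total ratio and 1 for the IP-to-input ratio. With a filter at a mean of 20 counts, 4 were higher in Mkrn3ox than wt cytoplasm, 1 higher in Mkrn3ox cytoplasm than total and 1 higher for the cytoplasm-to-total ratio. With no filter, 3 were lower for the IP-to-input ratio. By DESeq2, 1 was higher in Mkrn3ox cytoplasm than total, 2 lower in wt cytoplasm than total, and 1 higher for the cytoplasm-to-total ratio. With the compared groups alone in the fit, 1 was higher in Mkrn3ox cytoplasm than total, 6 were lower between the pull-downs and 3 lower in GFP-Mkrn3 IP than input. For the alternatives other than library size, the blocks below included, the matching counts over all tested genes are not given here. Those changes therefore do not show whether other genes moved alike.

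Same-numbered libraries did not deviate together (correlations between -0.146 and 0.0923), and the labels do not tie a number to a lysate or culture, so the fits without a block were kept; whether input and IP of 1 number share a lysate is not known. With the replicate number as a block, 0 genes were lower in wt cytoplasm than total in either form of the block, and, with the block within a plasmid, 1 was higher and 3 lower for the IP-to-input ratio; no other count moved by over 1.5 times.

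Leaving out each library in turn gave 1 to 2 higher in Mkrn3ox than wt cytoplasm, 0 to 1 lower in wt cytoplasm than total, 0 to 1 higher for the cytoplasm-to-total ratio, 3 to 5 higher and 6 to 15 lower between the pull-downs, 7 to 8 higher and 4 to 12 lower in GFP-Mkrn3 IP than input, 12 to 14 higher and 4 to 6 lower in GFP IP than input, and 0 to 3 higher and 3 to 13 lower for the IP-to-input ratio. These ranges are given without the matching shares of all tested genes.

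Fractionation depth, 374386 to 759271 counts per library, limits that experiment.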
